A study of Mus musculus with 12 samples.

Results

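The MYC, MAX and MXD network is a small family of transcription factors that pair with each other through a helix-loop-helix and leucine zipper domain. Its members here were taken by name from what is known of the network: Myc, Mycn, Max, Mxd1, Mxd3, Mxd4, Mxi1, Mnt, Mlx and Mga. They are 10 of the 49315 genes in the count tables, and all 10 passed the filter on low counts that left 15917 genes for testing.

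RNA was sequenced from mouse embryonic fibroblasts (MEFs), connective tissue cells grown from mouse embryos, after 24 h with the solvent DMSO or with an inhibitor of mTOR, the kinase that couples growth to nutrients and growth factors. Rapamycin (20 ng/ml) binds the protein FKBP12, and the pair then blocks mTOR complex 1. Torin1, which competes with ATP at the kinase itself and so reaches both mTOR complexes, was used at 250 nM. RapaLink-1, a rapamycin tethered to a kinase inhibitor, was used at 10 nM. Each of the 4 groups held 3 libraries. All cells were kept in DMEM with serum, and the labels name no strain, genotype, sex or passage. The doses differ between compounds, so any comparison of compounds below is one between these doses.

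MYC and its relative MYCN activate genes only as pairs with MAX, on the E-box, the short palindrome CACGTG. The MXD proteins (MXD1, MXD3, MXD4 and MXI1, also called MXD2) and MNT compete for the same MAX and the same E-boxes, and recruit the SIN3 and histone deacetylase corepressor. MLX is a second hub, which pairs with some MXD proteins and MNT and with the sugar sensors MondoA and ChREBP, and MGA is a very large MAX partner found in the polycomb complex PRC1.6. In fibroblasts MYC is known as an early growth-factor-induced gene, and MXD and MNT are known to oppose it as cells stop dividing. MYC protein turns over fast and is controlled after transcription, and the values here are of messages only.

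Total counts were 30075870 to 39423703 per library. The 10 fibroblast markers checked summed to between 19160 and 22650 CPM (counts scaled to each library's total with TMM factors) in every library, and none was at 0. The sum differed by group, at 21880 to 22290 CPM in DMSO, 20530 to 20900 in rapamycin, 21970 to 22650 in Torin1 and 19160 to 19480 in RapaLink-1. Single markers moved in opposite directions within that sum: with Torin1, Fn1 (2.02-fold) and Postn (2.09-fold) rose while Col3a1 (0.411 of DMSO), S100a4 (0.473) and Col1a2 (0.563) fell. Epithelial, endothelial, blood and neural markers summed to at most 1.20, 2.93, 4.15 and 0.288 CPM. Of the skeletal muscle markers, the regulators Myod1 and Myog were at 0 counts. Ttn, the other one checked, had 278 counts in all 12 libraries and at most 0.919 CPM in any library. The endothelial sum was 0.762 to 1.56 CPM in DMSO, 1.12 to 1.56 in rapamycin, 2.32 to 2.48 in Torin1 and 2.65 to 2.93 in RapaLink-1. The blood sum was 2.82 to 3.34, 2.19 to 3.52, 3.90 to 4.15 and 3.59 to 4.01 CPM in that order. Both smooth muscle markers (Cnn1 and Myh11) were detected and moved with the groups: their sum was 24.4 to 25.7 CPM in DMSO, 34.3 to 34.9 in rapamycin, 102 to 111 in Torin1 and 61.6 to 62.5 in RapaLink-1. The fat cell list moved too, from 9.98 to 11.7 CPM in DMSO to 11.4 to 12.9 in rapamycin, 13.3 to 14.8 in Torin1 and 15.3 to 15.8 in RapaLink-1, almost all of it Fabp4, with Adipoq and Plin1 at no more than 3 and 1 counts in any library. The part of these markers in the results below was not tested. In these bulk samples, fewer cells of a type and less RNA per cell cannot be told apart. Whether the 3 libraries of a group are separate cultures is not stated in the labels, and p-values therefore measure the spread among these samples alone, which may be technical.

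Myc, Mxd4 and Mnt rose and Mlx fell with each inhibitor. Max also fell with each, by little, and its direction with Torin1 and RapaLink-1 depended on the scaling. Mxd3 did not pass the test with rapamycin and fell to 0.291 of the DMSO level with Torin1 and 0.432 with RapaLink-1. Against DMSO, 7 of the 10 members passed the test with rapamycin (4 rose and 3 fell), 8 with Torin1 (4 and 4) and 9 with RapaLink-1 (4 and 5). A call is an adjusted p under 0.05 in the quasi-likelihood test of edgeR, adjusted by Benjamini-Hochberg over all 15917 genes. By the same rule 59.7% of all tested genes were called with rapamycin, 78.0% with Torin1 and 76.7% with RapaLink-1. The count of members called is therefore near the background. With a minimum mean of 5 CPM, 7821, 9236 and 9194 of 10484 genes were called in that order. Rises alone were 27.5%, 39.8% and 38.7% of all genes and falls alone 32.2%, 38.3% and 37.9%. The 3 treated and 3 DMSO libraries did not overlap in 63.0%, 78.5% and 77.6% of all genes, the background for the statements on overlap below. The median log2 fold change of the members was 0.11, 0.03 and -0.09 in that order, beside 0.00, 0.04 and 0.03 over all tested genes. The 3 comparisons share their DMSO libraries.

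**Figure D1:**
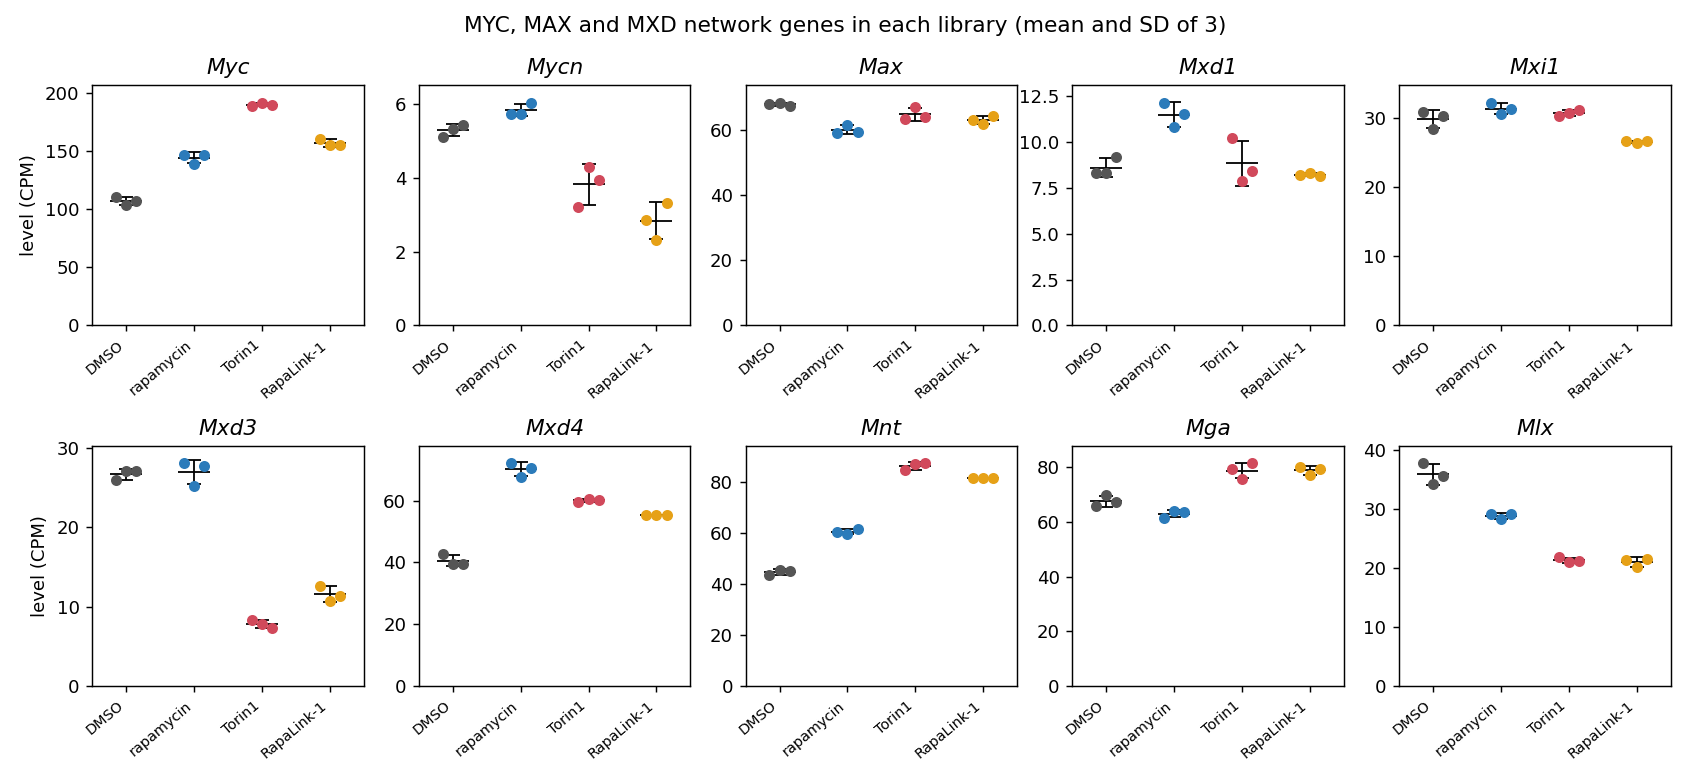
Level of each network gene in every library (y axis, CPM on a linear scale from 0; x axis, the 4 groups; points, libraries; bars, mean and SD of 3). Myc, Mxd4 and Mnt lie above DMSO in all 9 treated libraries, Mlx lies below in all 9, and Mxd3 is low only in the 6 libraries with Torin1 or RapaLink-1.

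Myc (ENSMUSG00000022346, chr15:61985391-61990374 of GRCm38, plus strand), the central activator, stood at 111, 104 and 107 CPM in the DMSO libraries and at 147, 139 and 147 CPM with rapamycin. With Torin1 the 3 libraries gave 189, 192 and 190 CPM, and with RapaLink-1 they gave 161, 155 and 156 CPM. No library of 1 group overlapped with any of another, and the order was DMSO, rapamycin, RapaLink-1, Torin1. On the log2 scale Myc rose by 0.43 ± 0.02 (SE, adjusted p = 7.29e-41) with rapamycin, by 0.83 ± 0.02 (4.6e-79) with Torin1 and by 0.55 ± 0.02 (3.73e-54) with RapaLink-1, which are 1.35-, 1.78- and 1.47-fold. Per kilobase of exon Myc was the most abundant message of the network in all groups, with a mean of 39.4 FPKM in DMSO and 70.0 FPKM with Torin1. Mycl, the third MYC gene and not one of the 10 members, rose from a mean of 7.19 CPM to 13.3, 30.1 and 23.0 CPM with rapamycin, Torin1 and RapaLink-1, or by 0.88 ± 0.07, 2.07 ± 0.06 and 1.67 ± 0.06 on the log2 scale.

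Mycn (ENSMUSG00000037169, chr12:12936096-12941914, minus strand), the MYC gene best known from neural progenitors and neuroblastoma, was low in these fibroblasts and took another course. It stood at 5.12, 5.33 and 5.44 CPM in DMSO and at 5.75, 5.75 and 6.05 CPM with rapamycin. With Torin1 it was at 3.22, 4.31 and 3.95 CPM, and with RapaLink-1 at 2.87, 2.33 and 3.33 CPM. The rapamycin libraries were all above DMSO, although the difference did not pass the test (log2 fold change 0.15 ± 0.10, adjusted p = 0.193). Mycn fell by 0.46 on the log2 scale (SE 0.11, adjusted p = 4.81e-05) with Torin1 and by 0.89 (SE 0.11, 1.29e-12) with RapaLink-1. Of the summed FPKM of Myc and Mycn, Mycn made up 3.93% ± 0.218 in DMSO (SD, n = 3), 3.23% ± 0.0955 with rapamycin, 1.63% ± 0.22 with Torin1 and 1.47% ± 0.257 with RapaLink-1.

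Max (ENSMUSG00000059436, chr12:76937269-76962248, minus strand), the obligate partner of both activators and repressors, varied little. Its levels were 67.9, 68.4 and 67.4 CPM in DMSO, 59.1, 61.5 and 59.5 CPM with rapamycin, 63.3, 67.1 and 63.8 CPM with Torin1 and 63.1, 61.9 and 64.4 CPM with RapaLink-1. All 9 treated libraries were below all 3 DMSO libraries. Max fell by 0.18 on the log2 scale (SE 0.03, adjusted p = 6.87e-08) with rapamycin, by 0.07 (0.03, 0.0327) with Torin1 and by 0.10 (0.03, 0.00101) with RapaLink-1. With upper-quartile scaling the Torin1 and RapaLink-1 values turned to 0.06 and 0.03, so their direction depends on the scaling. A minimum mean of 5 CPM turned the Torin1 value to 0.02 and ended the RapaLink-1 call (-0.02). The Torin1 call was lost when any of 4 libraries was left out, with values from -0.07 to -0.06. These were DMSO 1, DMSO 2, Torin1 1 and Torin1 3.

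The promoters of the members were searched for the E-box, which MAX pairs bind. Whether it has a part in the changes was not tested. RefSeq promoter windows (GRCm38.p6, 250 bases before to 50 after a start) were matched by symbol for 9 members, in 11 windows, and not for Myc. The letters CACGTG, which read the same on both strands, were in the windows of Max, Mlx, Mnt and Mxd4, 4 of the 9 members. By window these were 4 of the 11 member windows, beside 7.15% of all 32817 windows. In Mlx the E-box sits within the longer form TCACGTGA, which is in 0.98% of windows. Its first base was 219 bases upstream of the RefSeq start in Mxd4, 123 in Mnt, 40 in Mlx and 3 in Max. The motifs were chosen with these sequences in view, and a match describes letters only. The bases before every annotated start of Mnt (chr11:74830674-74830919, plus strand), Mxd4 (chr5:34187721-34187960, minus strand) and Mlx (chr11:101087040-101087276, plus strand) are shown because these 3 genes changed with all 3 inhibitors, with the E-box in capitals, and for Max 30 bases around the match (chr12:76962234-76962263, minus strand).
Mnt: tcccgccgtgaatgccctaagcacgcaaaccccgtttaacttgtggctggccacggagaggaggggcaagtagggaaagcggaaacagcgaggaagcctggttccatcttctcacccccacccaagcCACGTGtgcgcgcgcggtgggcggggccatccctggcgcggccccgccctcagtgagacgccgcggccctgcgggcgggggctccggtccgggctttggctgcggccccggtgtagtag
Mxd4: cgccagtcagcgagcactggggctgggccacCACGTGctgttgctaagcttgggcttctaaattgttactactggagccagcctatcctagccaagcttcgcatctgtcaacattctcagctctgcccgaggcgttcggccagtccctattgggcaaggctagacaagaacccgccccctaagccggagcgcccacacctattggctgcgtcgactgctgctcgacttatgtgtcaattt
Mlx: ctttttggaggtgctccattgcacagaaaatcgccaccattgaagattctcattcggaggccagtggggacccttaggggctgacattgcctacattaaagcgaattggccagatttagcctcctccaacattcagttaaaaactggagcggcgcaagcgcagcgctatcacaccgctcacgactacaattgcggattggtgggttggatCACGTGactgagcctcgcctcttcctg
Max: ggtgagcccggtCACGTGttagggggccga

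The window of Mycn held other letters. TTTGGCGC, a form of the site of E2F factors, which drive S-phase genes, occurred at 183 and at 168 bases upstream of the RefSeq start, and the related TTTCGCGC, on the other strand and overlapping the first of these, at 179. On either strand TTTGGCGC is in 0.51% and TTTCGCGC in 0.32% of all windows, and among the members both were found only in the windows of Mycn. The stretch before every annotated start of Mycn (chr12:12941915-12942086, minus strand) is given with these letters in capitals. In a window of Mxi1 the letters GTAAACAA of a FoxO element were found, which are in 1.23% of windows. They lie at chr19:53329464-53329471, 231 bases upstream of a RefSeq start but inside the gene as placed in the count tables.
Mycn: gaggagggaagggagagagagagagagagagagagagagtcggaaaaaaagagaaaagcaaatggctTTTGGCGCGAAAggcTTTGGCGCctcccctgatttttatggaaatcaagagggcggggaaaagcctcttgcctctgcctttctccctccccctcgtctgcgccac

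Among the repressors, Mnt (ENSMUSG00000000282, chr11:74830920-74845725, plus strand), the most widely expressed antagonist of MYC, rose most with Torin1 and RapaLink-1. It stood at 43.3, 45.5 and 45.1 CPM in DMSO, at 60.3, 59.5 and 61.4 CPM with rapamycin, at 84.4, 87.0 and 87.1 CPM with Torin1 and at 81.5, 81.5 and 81.2 CPM with RapaLink-1. The 4 groups did not overlap. The log2 fold change was 0.44 ± 0.03 (adjusted p = 1.2e-27) with rapamycin, 0.95 ± 0.03 (1.9e-69) with Torin1 and 0.87 ± 0.03 (1.69e-63) with RapaLink-1, which was 1.93-fold at most.

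Mxd4 (ENSMUSG00000037235, chr5:34173883-34187720, minus strand), known from cells that leave the cycle and differentiate, showed another order, with its highest level under rapamycin. It was at 42.8, 39.6 and 39.4 CPM in DMSO, at 72.0, 67.7 and 70.7 CPM with rapamycin, at 59.7, 60.6 and 60.2 CPM with Torin1 and at 55.4, 55.4 and 55.3 CPM with RapaLink-1. Mxd4 rose by 0.79 ± 0.03 (adjusted p = 1.23e-53), 0.57 ± 0.03 (1.36e-36) and 0.45 ± 0.03 (2.2e-26) on the log2 scale. It was lower with Torin1 than with rapamycin (-0.22 ± 0.03, 6.72e-11) and lower with RapaLink-1 than with rapamycin (-0.34 ± 0.03, 1.49e-20).

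Mxd3 (ENSMUSG00000021485, chr13:55325168-55329758, minus strand), the MXD gene known to be expressed in S phase of dividing cells, moved the other way and, with Torin1 and RapaLink-1, by more than any other member. It was at 25.9, 27.2 and 27.1 CPM in DMSO and at 28.1, 25.2 and 27.7 CPM with rapamycin, groups that overlapped. With Torin1 it was at 8.28, 7.80 and 7.29 CPM, and with RapaLink-1 at 12.6, 10.7 and 11.4 CPM. The rapamycin difference from DMSO was 0.02 ± 0.05 (adjusted p = 0.729, 95% interval -0.07 to 0.11), while Mxd3 fell by 1.78 on the log2 scale (SE 0.06, 3.46e-66) with Torin1 and by 1.21 (SE 0.06, 2.17e-49) with RapaLink-1. These falls were larger in size than the changes of 95.7% and 89.4% of all tested genes. Directly against rapamycin, the Torin1 libraries were lower by -1.80 ± 0.06 (1.35e-66) and the RapaLink-1 libraries by -1.23 ± 0.06 (5.38e-50). The end of Mxd3 overlaps Prelid1 on the opposite strand over 5.0% of its exonic bases, and Prelid1 changed by -0.22, -0.65 and -0.63.

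Mxd1 (ENSMUSG00000001156, chr6:86647042-86669161, minus strand), the first MXD gene described and linked to differentiation of blood and skin cells, was the least abundant repressor per kilobase, with a mean of 1.22 FPKM in DMSO. Its levels were 8.33, 8.31 and 9.18 CPM in DMSO, 12.1, 10.8 and 11.5 CPM with rapamycin, 10.2, 7.88 and 8.41 CPM with Torin1 and 8.20, 8.31 and 8.13 CPM with RapaLink-1. The rapamycin libraries stood clear above DMSO, the Torin1 libraries lay around it and the RapaLink-1 libraries at its lower edge. With rapamycin Mxd1 had a log2 fold change of 0.42 ± 0.07 (adjusted p = 1.31e-07). The Torin1 difference from DMSO was 0.03 (95% interval -0.12 to 0.18, adjusted p = 0.727) and the RapaLink-1 difference -0.07 (-0.22 to 0.09, 0.433). The difference between compounds passed the test for Mxd1, at -0.39 ± 0.07 for Torin1 against rapamycin (7.51e-07) and -0.49 ± 0.07 for RapaLink-1 against rapamycin (1.82e-09).

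Mxi1 (ENSMUSG00000025025, chr19:53310506-53375810, plus strand) is known as induced by FoxO and hypoxia factors. It was at 30.9, 28.4 and 30.4 CPM in DMSO, 32.2, 30.6 and 31.4 CPM with rapamycin, 30.3, 30.8 and 31.1 CPM with Torin1 and 26.7, 26.4 and 26.7 CPM with RapaLink-1. The RapaLink-1 libraries were below all others, with a log2 fold change of -0.17 ± 0.04 (adjusted p = 0.000186) against DMSO. Upper-quartile scaling ended that call (-0.03), and so did a minimum mean of 5 CPM (-0.09). The differences with rapamycin (0.07, adjusted p = 0.139) and Torin1 (0.04, 0.394) did not pass the test as processed here. Both passed with upper-quartile scaling (0.13 and 0.17) and with a minimum mean of 5 CPM. The rapamycin difference also passed with only the 6 libraries compared.

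Mga (ENSMUSG00000033943, chr2:119897228-119969581, plus strand), the MAX partner of PRC1.6 that keeps germline genes off in somatic cells, rose with the kinase-directed compounds. Its levels were 65.9, 69.8 and 67.2 CPM in DMSO, 61.5, 63.9 and 63.7 CPM with rapamycin, 79.2, 75.8 and 81.4 CPM with Torin1 and 80.2, 77.1 and 79.4 CPM with RapaLink-1. The rapamycin libraries were below the DMSO libraries and the 6 others above them. On the log2 scale Mga changed by -0.10 ± 0.03 with rapamycin (adjusted p = 0.00217), by 0.22 ± 0.03 with Torin1 (5.11e-12) and by 0.22 ± 0.03 with RapaLink-1 (5.36e-12). The rapamycin call was lost with upper-quartile scaling (-0.04). Against rapamycin directly, both kinase-directed compounds gave 0.32 ± 0.03 (1.77e-20 for Torin1 and 2e-20 for RapaLink-1).

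Mlx (ENSMUSG00000017801, chr11:101087277-101092207, plus strand), the partner of MondoA, fell with every inhibitor. It stood at 37.7, 34.2 and 35.6 CPM in DMSO, 29.1, 28.3 and 29.1 CPM with rapamycin, 21.8, 20.9 and 21.1 CPM with Torin1 and 21.4, 20.1 and 21.5 CPM with RapaLink-1. The Torin1 and RapaLink-1 libraries overlapped and lay below the others. Mlx fell by 0.31 on the log2 scale (SE 0.04, adjusted p = 1.4e-11) with rapamycin, by 0.76 (0.04, 2.4e-37) with Torin1 and by 0.77 (0.04, 3.09e-38) with RapaLink-1. Mlx is uncertain because 19.3% of its exonic bases lie over Psmc3ip on the other strand, the strand setting of the counting is not given in the sources used here, and Psmc3ip changed alongside it by -0.15 ± 0.05, -0.60 ± 0.06 and -0.73 ± 0.06.

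**Figure D2:**
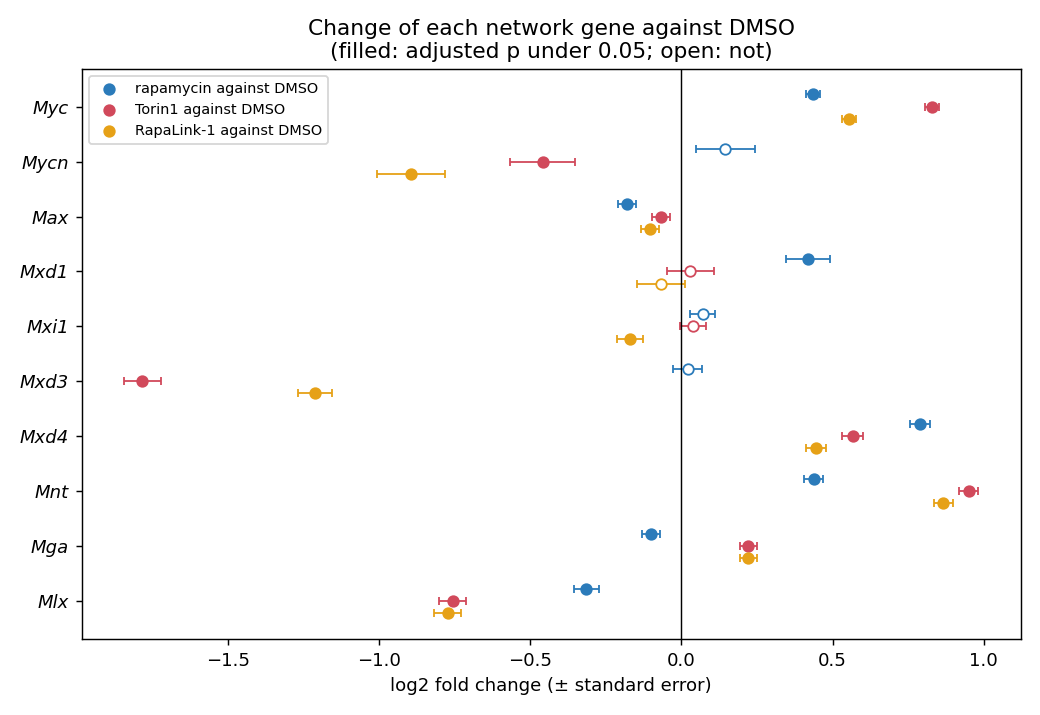
Log2 fold change of each network gene against DMSO (x axis; bars, standard error; filled points, adjusted p under 0.05; open points, not called; y axis, genes). Mxd3 reaches -1.78 with Torin1 and lies at 0.02 with rapamycin, Mnt and Myc lie right of 0 with all 3 inhibitors, and Mxd4 is the gene of these whose rapamycin point is farthest right.

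RapaLink-1 and Torin1 differed for 6 of the 10 members, beside 33.2% of all genes called in that comparison (16.7% higher and 16.4% lower, with 42.2% not overlapping). With a minimum mean of 5 CPM, 4695 of 10484 genes were called there. Myc was lower with RapaLink-1 (log2 fold change -0.28 ± 0.02, adjusted p = 8.96e-25), as were Mxi1 (-0.21, 2.09e-05), Mxd4 (-0.12, 0.00124), Mnt (-0.08, 0.0119) and Mycn. Mxd3 was higher with RapaLink-1, by 0.57 ± 0.07 (5.4e-12). Mycn, at -0.44 ± 0.12 (0.00242), lost its call without the second Torin1 library (-0.34) or the second RapaLink-1 library (-0.29), and the Mnt call was lost without Torin1 2 or 3 or RapaLink-1 2 or 3 (-0.08 to -0.07) and in DESeq2. The other 4 did not pass, with 95% intervals of -0.10 to 0.02 for Max, -0.25 to 0.06 for Mxd1, -0.06 to 0.06 for Mga and -0.11 to 0.08 for Mlx. Against rapamycin, 9 members differed with Torin1 (4 higher and 5 lower, beside 67.5% of all genes called, 34.2% higher and 33.2% lower) and all 10 with RapaLink-1 (4 higher and 6 lower, beside 65.0% of all genes called, 32.0% higher and 33.0% lower). Libraries did not overlap in 69.2% and 67.4% of all genes. With a minimum mean of 5 CPM, 8583 and 8490 of 10484 genes were called against rapamycin. In both comparisons Myc, Max, Mnt and Mga were higher and Mycn, Mxd1, Mxd3, Mxd4 and Mlx lower. The log2 fold changes of Max were the smallest calls there, at 0.11 and 0.07, and the call for RapaLink-1 was lost in DESeq2, with no filter, and without rapamycin library 1 or 3 or any 1 RapaLink-1 library (values from 0.04 to 0.08). The call for Torin1 was lost without the second Torin1 library (0.06).

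Summed over genes per kilobase, which counts messages and not proteins, the balance of antagonists to activators moved. Myc plus Mycn came to 41.0 FPKM ± 1.28 in DMSO (SD, n = 3), 55.0 ± 1.69 with rapamycin, 71.2 ± 0.746 with Torin1 and 58.8 ± 1.2 with RapaLink-1. The 4 MXD genes plus Mnt came to 33.8 ± 0.281, 41.5 ± 1.36, 36.2 ± 0.108 and 35.6 ± 0.502 FPKM. Mycl, which rose with each inhibitor, and Mga were left out of these sums and of the ratios below. The ratio of antagonists to activators was 0.793 to 0.850 in DMSO and 0.753 to 0.759 with rapamycin, 0.601 to 0.608 with RapaLink-1 and 0.505 to 0.512 with Torin1. The ranges of the groups did not touch. Max per unit of Myc plus Mycn was 0.827 ± 0.0288 in DMSO, 0.545 ± 0.0292 with rapamycin, 0.453 ± 0.0102 with Torin1 and 0.536 ± 0.0137 with RapaLink-1. Levels per kilobase rest on the summed exons of all annotated transcripts, which lowers genes with many variants, and these sums are a description with no test.

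**Figure D3:**
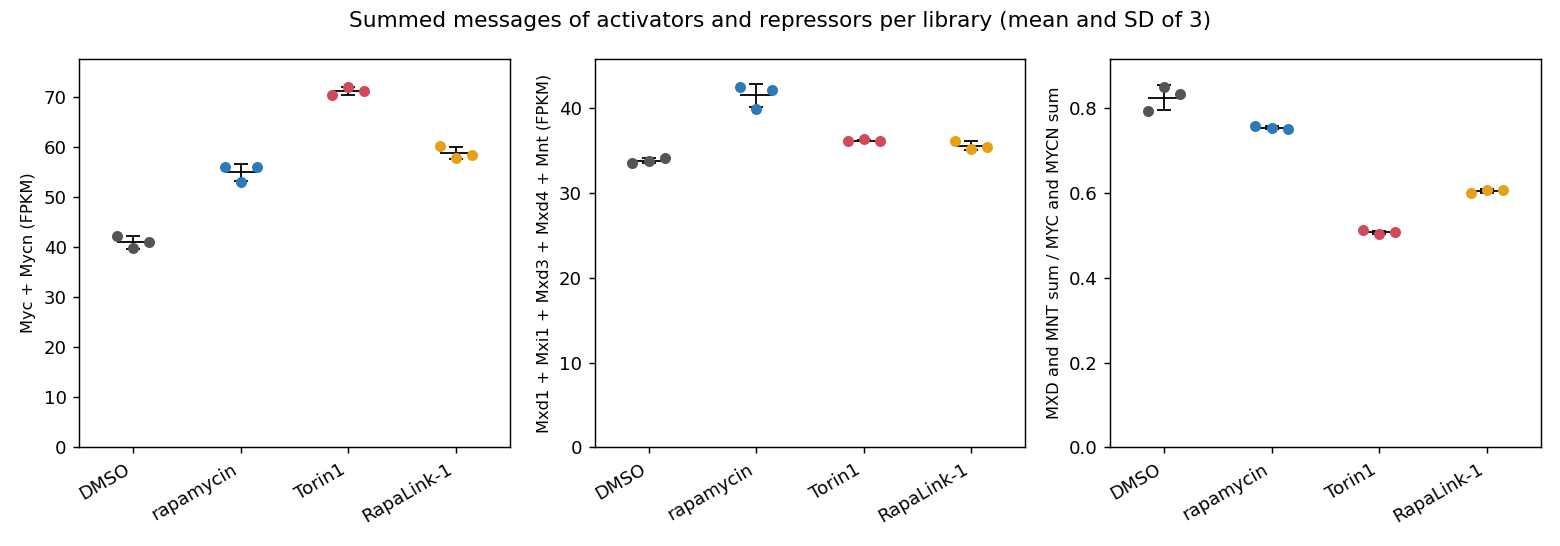
Summed levels per library (left, Myc and Mycn; middle, Mxd1, Mxi1, Mxd3, Mxd4 and Mnt, both in FPKM; right, the middle sum divided by the left; points, libraries; bars, mean and SD of 3; all axes from 0). The ratio is 0.793 to 0.850 in DMSO and 0.505 to 0.512 with Torin1.

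The makeup of the repressors shifted as well. Within the 4 MXD genes, Mxd4 made up 19.8% ± 0.938 of the FPKM in DMSO (SD, n = 3), 29.1% ± 0.344 with rapamycin, 40.4% ± 0.864 with Torin1 and 36.3% ± 0.992 with RapaLink-1. Mxd4 per Mxd3 went from 0.373 ± 0.0275 in DMSO to 0.638 ± 0.0175 with rapamycin, 1.90 ± 0.129 with Torin1 and 1.18 ± 0.0998 with RapaLink-1. Ordered by mean FPKM in DMSO, the network ran Myc (39.4), Max (33.9), Mlx (17.9), Mxd3 (12.8), Mnt (9.65), Mxi1 (5.32), Mxd4 (4.79), Mga (4.41), Mycn (1.61) and Mxd1 (1.22). With Torin1, Mxd3 had moved from the first of the repressors to below Mxi1 and Mxd4, at 3.74 FPKM, and Mnt was the most abundant repressor, at 18.6 FPKM.

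Listed genes around the network were then counted, beside the medians over all genes given above. Of all tested genes, 32.2%, 38.3% and 37.9% were called as falls with rapamycin, Torin1 and RapaLink-1. Rises were 27.5%, 39.8% and 38.7%, and these shares are the background for each list below. With a minimum mean of 5 CPM, 3854, 4560 and 4555 of 10484 genes were called as falls. Rises there were 3967, 4676 and 4639. Of 66 genes known as MYC targets, all of which passed the filter, 60 fell and 1 rose with rapamycin (median log2 fold change -0.49), 54 fell and 6 rose with Torin1 (-0.63), and 56 fell and 5 rose with RapaLink-1 (-0.66). The list was made up from most of a published hallmark set as remembered plus textbook targets. The Myc message rose in these same libraries, and MYC protein was not measured. Among the targets, Hspd1, a mitochondrial chaperone gene, fell with log2 fold changes of -0.89 for rapamycin, -1.04 for Torin1 and -1.03 for RapaLink-1. In the same order, the nucleolar genes Ncl (-0.72, -0.60 and -0.66) and Mybbp1a (-0.68, -0.42 and -0.44) fell. Npm1, another nucleolar gene of the list, fell with rapamycin (-0.60) but rose with Torin1 (0.47) and RapaLink-1 (0.33). Ldha, the lactate dehydrogenase gene, fell too (-0.77, -1.36 and -1.29). So did the replication helicase genes Mcm5 (-0.63, -1.79 and -1.70) and Mcm4 (-0.41, -1.28 and -1.21) and the sterol-responsive gene Tmem97 (-0.66, -1.89 and -1.96). Exosc5, a subunit of the RNA exosome, rose by 0.19, 0.52 and 0.33, and Unc119 rose by 0.72 and 0.70 with Torin1 and RapaLink-1 (0.05 ± 0.06 with rapamycin, not called).

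**Figure D4:**
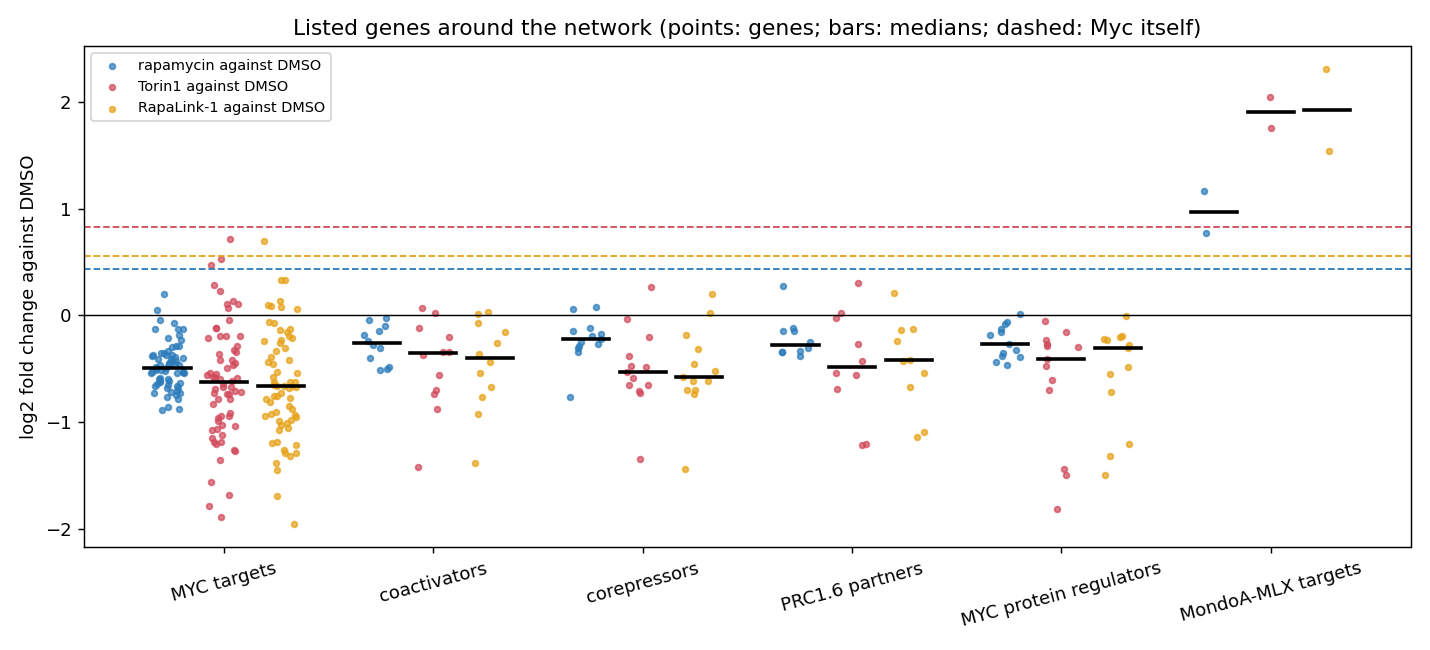
Log2 fold change against DMSO (y axis) of the tested genes of 6 lists around the network (x axis; points, genes; black bars, medians; dashed lines, the Myc message itself in the colour of its comparison). The MYC target medians lie at -0.49, -0.63 and -0.66, on the other side of 0 from the Myc lines at 0.43, 0.83 and 0.55.

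Genes known as repressed by MYC had no single direction, and neither had all tested genes, by the shares given above. Of 11, 5 rose and 5 fell with rapamycin, 5 and 6 with Torin1 and 4 and 6 with RapaLink-1, with median log2 fold changes of 0.04, -0.65 and -0.71. The list holds Col1a1 and Col1a2, which are also among the fibroblast markers. Thbs1, the thrombospondin gene, rose 1.69-, 3.03- and 2.26-fold. The gene of the cyclin-dependent kinase inhibitor p21, Cdkn1a, fell (-1.05, -3.48 and -2.05) from a low level, with 840 counts in all 12 libraries. Its means were 4.34 CPM in DMSO, 2.10 with rapamycin, 0.381 with Torin1 and 1.05 with RapaLink-1.

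The cofactors of both arms mostly fell, beside falls of 32.2%, 38.3% and 37.9% among all tested genes. Of 12 coactivator subunits that MYC recruits, 10 fell with rapamycin, 10 with Torin1 and 9 with RapaLink-1, none rose, and the medians were -0.26, -0.36 and -0.40. They included the helicase genes Ruvbl1 (-0.51, -0.74 and -0.77) and Ruvbl2 (-0.51, -0.88 and -0.93) and Actl6a, an actin-like subunit of chromatin complexes (-0.49, -1.42 and -1.38). Of 13 subunits of the SIN3 and NCoR corepressors, 11 fell with each inhibitor, 2 rose with rapamycin and 1 with each of the others, with medians of -0.22, -0.53 and -0.58. The deacetylase genes Hdac1 (-0.20, -0.65 and -0.62) and Hdac2 (-0.27, -0.48 and -0.58) fell, as did Sap30, a small SIN3 subunit (-0.77, -1.35 and -1.44). The paralogous scaffolds parted: Sin3a fell (-0.18, -0.38 and -0.32), and Sin3b rose by 0.08 ± 0.02, 0.27 ± 0.02 and 0.20 ± 0.02.

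Around MGA, 9 of 10 other PRC1.6 genes fell with rapamycin, 7 with Torin1 and 9 with RapaLink-1 and 1 rose in each, with medians of -0.28, -0.49 and -0.42. Those that fell included the polycomb gene L3mbtl2 (-0.34, -1.22 and -1.09), E2f6 (-0.26, -0.43 and -0.43) and the E2F partner gene Tfdp1 (-0.38, -1.20 and -1.14). The gene that rose was Ring1, a ubiquitin ligase subunit, by 0.27, 0.30 and 0.21. The lists share genes: Wdr5 of this list was also counted among the coactivators, and Cbx3 among the MYC targets. Of 12 germline genes that MGA is known to keep off, 9 were too low to test, so counts over the other 3 do not describe the list. Stag3, a cohesin gene of meiosis, rose by 0.70, 0.94 and 0.74. Tdrkh rose by 0.44 with rapamycin and 0.17 with RapaLink-1 (-0.00 with Torin1, not called). Smc1b had 128 counts in all 12 libraries, with means of 0.103 CPM in DMSO, 0.206 with rapamycin, 0.497 with Torin1 and 0.412 with RapaLink-1, and such low counts pass the filter through the groups where they are highest, so its difference is not read as a rise.

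The genes that act on MYC protein also fell in most cases, namely 10 of 13 with rapamycin, 13 with Torin1 and 12 with RapaLink-1, with medians of -0.27, -0.41 and -0.31. The list mixes genes that destabilise and genes that stabilise MYC. Among ubiquitin ligase genes, Skp2 (-0.38, -1.44 and -1.32) and Huwe1 (-0.36, -0.61 and -0.55) fell. Fbxw7 (-0.08, -0.16 and -0.22) and Stub1 (0.01, -0.29 and -0.20) moved less, and neither was called with rapamycin. Among genes known to stabilise MYC, the mitotic kinase gene Aurka (-0.47, -1.81 and -1.49) and Cip2a, an inhibitor of the phosphatase PP2A (-0.44, -1.50 and -1.20), fell.

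On the MLX side, Mlxip, the gene of MondoA, fell by little (-0.14, -0.14 and -0.10 on the log2 scale). With upper-quartile scaling the 3 Mlxip calls were lost, and the RapaLink-1 value turned to 0.04. The RapaLink-1 call was also lost without the first DMSO library (-0.07). Mlxipl, the gene of ChREBP, had 7 counts in all 12 libraries and was not tested. Both MondoA and MLX target genes listed rose in the libraries where Mlx fell. Arrdc4, an arrestin-domain gene, rose by 0.77 ± 0.09, 1.75 ± 0.08 and 1.54 ± 0.08, and Txnip, an inhibitor of glucose uptake, by 1.17 ± 0.03, 2.05 ± 0.03 and 2.31 ± 0.03. Zbtb17, the gene of MIZ1, a partner through which MYC represses, fell (-0.11, -0.33 and -0.36), and its rapamycin call was lost without DMSO library 1 or rapamycin library 3 (-0.11 to -0.06) and in DESeq2.

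The genes whose levels followed each member most closely were taken by Pearson's r of log2 CPM over the 12 libraries, among the 9164 genes whose mean reached 10 CPM. These r are descriptions, since the 12 libraries share 4 treatments and many genes reach high values. For Myc the nearest were the cytokine gene Il6 (r = 0.996), the transcription factor gene Cebpd (0.995) and Ccn5 (0.994), and Il6 rose by 1.47 ± 0.08, 2.64 ± 0.07 and 1.67 ± 0.08 on the log2 scale. For Mnt they were Mcam (0.999), the oncostatin receptor gene Osmr (0.998) and Zfp949 (0.998). For Mxd3 they were the cytokinesis gene Cep55 (0.998), the cell cycle repressor gene E2f7 (0.996) and Ptgs1 (0.995), and for Mxd4 the chromatin gene Hmga2 (0.988), the ERK phosphatase gene Dusp6 (0.986) and Epha1 (0.984). For Mlx they were Aifm1 (0.995), Tsr2 (0.995) and Dnaja1 (0.994), and for Mga the ubiquitin ligase gene Mycbp2 (0.987), Hectd4 (0.986) and Foxj3 (0.982). The members with small or noisy changes had lower values, led by Slc12a2 for Mycn (0.966), Tarbp1 for Max (0.965), Gskip for Mxd1 (0.954) and Spry1 for Mxi1 (0.949). Between members, Myc and Mnt ran closest together (r = 0.95 over 12 libraries) and Mnt and Mlx most opposed (-0.988).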

How the data were processed

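Messages were measured in 12 MEF libraries grouped by the treatment label (DMSO, rapamycin, Torin1, RapaLink-1, 3 each). The authors deposited raw counts of reads per gene, 1 table per library, made with featureCounts per the file headers. The submitters' processing notes also name the build GRCm38, STAR 2.5.2b, Trimmomatic 0.36, DESeq2 and Subread 1.5.2. How strand and reads with several matches were handled is not given in the sources used here, and overlapping genes may share reads. GENCODE M21 gave symbols for 48970 of 49315 IDs, and gene positions are those in the count tables.

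Counts were filtered with filterByExpr by group (15917 genes left) and scaled with TMM factors. They were tested in edgeR 4.0.16 (R 4.3.3) by a robust quasi-likelihood fit of the 12 libraries with group alone as a term. The fit left 8 residual degrees of freedom, and the spread shared across genes added a median of 154 prior degrees of freedom. The very small p-values therefore rest largely on that shared spread, not on the 3 libraries of a group alone. Each pair of groups, 6 in all, was a two-sided contrast, adjusted by Benjamini-Hochberg over the 15917 genes, and every adjusted p printed is from it. FPKM were computed from the counts and the exonic lengths in the tables, and log2 CPM for correlations with a prior count of 2.

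Members and gene lists were chosen with earlier results of these data known. The 10 members are named whatever their values. Any gene of a list of at most 14 could be named. Of the longer MYC target list, up to 4 genes with the smallest p and the largest rise and fall against DMSO could be named. For each member the 3 genes with the highest r could be named. Npm1 was named outside this rule, beside the other nucleolar genes.

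Replicate pairs of a group differed by more than sampling noise, with a chi-square per degree of freedom of 1.33 to 1.99. Alternatives were upper-quartile and DESeq2 size factors, 2 other filters, a replicate block, only the 6 libraries compared, each library left out, and DESeq2 1.42.0.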

Additional observations from a re-analysis of the deposited data

How the results depend on the processing

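The count of members called stayed within 1.5 times its value under every alternative run: 7 to 8 against DMSO for rapamycin, 7 to 8 for Torin1, 6 to 9 for RapaLink-1, 8 to 9 for Torin1 against rapamycin, 9 to 10 for RapaLink-1 against rapamycin and 4 to 6 for RapaLink-1 against Torin1. Of 774 alternative values of single members, 722 kept direction and call, and 23 changed sign, counted whatever their call. The others kept their sign, and of these 24 lost the call and 5 gained it. Upper-quartile scaling moved the median of all genes by 0.063, 0.126 and 0.137 for rapamycin, Torin1 and RapaLink-1 against DMSO. It moved the share of rises among all calls from 46.1% to 57.4% for rapamycin (4381 rises and 5127 falls to 5481 and 4061), from 50.5% to 61.3% for RapaLink-1 (6165 and 6036 to 7629 and 4823) and from 49.2% to 59.4% for RapaLink-1 against rapamycin (5088 and 5260 to 6296 and 4311). MYC targets that rose went from 6 to 10 with Torin1 and from 5 to 8 with RapaLink-1. Signs changed under upper-quartile scaling and under a minimum mean of 5 CPM for Max with Torin1 against DMSO (0.059 and 0.024), Mxd1 with RapaLink-1 (0.070 and 0.018), Mxi1 with Torin1 against rapamycin (0.033 and 0.0022) and Tdrkh with Torin1 (0.125 and 0.090), and under upper-quartile scaling alone for Max (0.033) and Mlxip (0.041) with RapaLink-1. The 5 CPM filter removed Mycn. Mga in RapaLink-1 against Torin1, near 0, was 0.011 with upper-quartile scaling, 0.010 with DESeq2 size factors, 0.0011 with no filter, 0.0001 with the replicate block and 0.010 in DESeq2, and Tdrkh with Torin1 was 0.0015 in the 6 libraries alone.

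With 1 library left out, values ranged over both signs for Mxd3 with rapamycin (-0.0071 to 0.062), Mxd1 with Torin1 (-0.086 to 0.097), Tdrkh with Torin1 (-0.036 to 0.018) and, in RapaLink-1 against Torin1, Mxd1 (-0.166 to 0.018), Mga (-0.022 to 0.032) and Mlx (-0.030 to 0.021). None of these was called. The cause was not tested. Replicate numbers did not pair the libraries: 18 correlations of same-numbered deviations were -0.039 to 0.059, and the replicate block changed no member's call. Levels in CPM without length cannot be set beside FPKM, so that alternative gave no value. With 3 libraries a group, precision limits mainly Mycn and Mxd1, the least abundant members.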
